A study of Mus musculus with 110 samples.

Results

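The subject here is a 474.3 kb stretch at the D-proximal end of the VH region of the mouse immunoglobulin heavy-chain locus (Igh), and the junctions recovered in it. Junctions were taken from all 98 full libraries if they lay on chromosome 12 between positions 114855462 and 115329804 and more than 100 bp from 3 left-out segment positions, 114919648, 115015512 and 115055836. This gave 65460 junctions, 1.82% of the 3602400 junctions in these libraries and 21.0% of the 312039 junctions of the whole VH region (114829805 to 117639092). Positions are those of the files, which use a hybrid of mm9 with a 129-strain Igh sequence. The stretch begins 25.7 kb into the VH region and ends within its first 500 kb. The rule uses position alone.

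V(D)J recombination assembles the variable exon of an antibody gene from V, D and J segments, each flanked by a recombination signal that the RAG endonuclease cuts. A signal is a conserved heptamer and a nonamer held apart by a spacer. At Igh a D segment first joins a JH segment, and a VH segment then joins the DJH product. The RAG complex bound at the JH end can reach distant segments along chromatin that cohesin extrudes into a loop, and CTCF bound to DNA can hold cohesin back. Rad21 is a cohesin subunit, and IGCR1 is a CTCF-bound control element between the D and VH segments. Many D-proximal VH segments of the Ighv2 (VHQ52) and Ighv5 (VH7183) families have a CTCF binding element just after their recombination signal. The study asked how loop extrusion bears on RAG scanning at Igh.

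Junctions were mapped by LAM-HTGTS V(D)J-seq, a linear-amplification assay that reads outward from a bait at JH4, so each junction is 1 sequenced join of the bait to a prey site. All cell lines were v-Abl transformed pro-B lines with an Emu-Bcl2 transgene and no RAG2 of their own. They were nucleofected with RAG2 and treated with 3 uM STI-571, an Abl kinase inhibitor that arrests these cells, for 4 days. The parental line (labelled WT in some libraries), an Ostir1 knock-in line (Ostir_only) and a line with CTCF tagged with mAID and GFP (CTCFtagging_only) had 4 replicates untreated (NT) and 4 with the auxin IAA. CTCFdegron had 6 and 6, Rad21degron 3 and 3, and an IGCR1-deleted Rad21degron line 4 and 4. IAA, which triggers loss of a degron-tagged protein where Ostir1 is present, was given at 500 uM from 6 h before STI-571 onward. The treatment labels of 4 libraries with IAA in the title do not name it, in replicates 4 and 5 of CTCFdegron and replicate 4 of the IGCR1-deleted line, and the titles were followed. Wild-type 129SV bone marrow pro-B cells, sorted as B220+CD43+IgM- where the label says so, gave 6 replicates with no nucleofection in their labels. Replicates 4 to 6 of these carry the treatment text of the lines, with STI-571, beside a sorting label, and whether they were treated is not settled by the labels. They form 1 of the 2 bone marrow runs, with a mean region share of 4.19% of all and 15.0% of VH junctions, against 5.01% and 15.1% in replicates 1 to 3. The labels do not say whether replicates were separate cultures or animals, so p-values measure the spread between these samples, which may be technical.

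Replicate totals ran from 1263 to 231023 junctions. They were lowest in the IAA groups of Rad21degron (1263 to 2492) and its IGCR1-deleted derivative (1608 to 2668). Read names gave 11 sequencing runs. All CTCFdegron libraries shared 1 run, whereas bone marrow shared no run with any line, so run and cell source cannot be told apart there. Replicate 1 of CTCFdegron stood apart in both treatments, with a region share of 2.58% against 0.979% to 1.46% in the other NT replicates and 18.3% against 10.9% to 13.3% with IAA.

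Nearly all of the junctions lay at 24 VH segments, which held 65302 of them (99.8%), and 64820 were in the plus orientation of a coding join. The other 158 were scattered. A single peak matched no segment; it lay 7.0 kb into the region and held 11 junctions, all in 4 replicates of CTCFdegron IAA. By closest mm9 match 13 segments belonged to Ighv2 and 11 to Ighv5, at 94% to 100% identity, and all 24 matches are annotated as V segments rather than pseudogenes. Since several share a closest gene, each is named here by that gene and its distance into the region. For 7 of them another VH segment was at least 98% identical, so junctions of such copies could be misassigned: Ighv5-6 at 143.2 kb is 99.5% identical to the left-out segment at 115055836, and 3 Ighv2-6 copies are 100% identical over the prey reads compared.

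Reads in the minus orientation carry the signal side of the segment, and these gave the recombination signal of 16 segments. The signals of the 3 segments with most junctions, of a far segment that was high in bone marrow and of an Ighv2-9 segment with one of the largest rises after IAA are printed because the results turn on them. Each runs 5′ to 3′ in the direction of the V gene, on the minus strand of the hybrid chromosome 12. Capitals mark, in order, the heptamer, the nonamer and a match to the motif CCANNAGNNGGC, the core of the known CTCF motif.

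Ighv2-3 at 13.6 kb (chr12:114869027-114869122): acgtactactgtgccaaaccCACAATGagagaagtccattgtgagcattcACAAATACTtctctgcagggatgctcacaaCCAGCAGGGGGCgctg
Ighv5-6 at 28.0 kb (chr12:114883339-114883432): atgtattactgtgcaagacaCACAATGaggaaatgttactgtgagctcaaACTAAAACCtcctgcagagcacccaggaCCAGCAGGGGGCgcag
Ighv5-12 at 106.0 kb (chr12:114961418-114961511): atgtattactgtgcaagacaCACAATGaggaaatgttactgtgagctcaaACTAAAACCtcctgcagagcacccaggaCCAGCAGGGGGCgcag
Ighv2-9 at 331.9 kb (chr12:115187277-115187372): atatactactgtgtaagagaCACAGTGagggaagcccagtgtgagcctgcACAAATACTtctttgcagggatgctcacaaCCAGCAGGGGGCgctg
Ighv5-6 at 409.2 kb (chr12:115264605-115264698): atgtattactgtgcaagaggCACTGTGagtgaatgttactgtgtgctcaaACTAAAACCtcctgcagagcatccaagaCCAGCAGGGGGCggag

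The consensus heptamer CACAGTG stood at 9 of the 16 segments (56.3%), against 36 of 45 readable VH segments outside the region (80%). CACAATG stood at 6 (37.5%), against 4 of 45 (8.89%) outside. It stood at all 3 leading segments, Ighv2-3 at 13.6 kb, Ighv5-6 at 28.0 kb and Ighv5-12 at 106.0 kb. The 1 remaining segment, Ighv5-6 at 409.2 kb, had CACTGTG. The printed signals of Ighv5-6 at 28.0 kb and Ighv5-12 at 106.0 kb are the same 94 bases. The motif was searched on both strands within 139 bases from the heptamer, where at least 3 reads covered each base. It was found in the V direction at 15 of 15 readable segments of the region (100%) and at 11 of 34 outside it (32.4%), and on the opposite strand at none in either set. These matches describe the sequence and no binding was measured here.

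The level of the region differed widely between lines. In untreated parental cells it held 0.523%, 0.587%, 0.674% and 0.629% of all junctions in replicates 1 to 4. Ostir_only NT was at 0.550% ± 0.0846 (SD, n = 4), Rad21degron NT at 0.336% ± 0.0583 (n = 3) and the IGCR1-deleted line at 0.467% ± 0.112 (n = 4). CTCFtagging_only NT was at 1.09% ± 0.132 (n = 4) and CTCFdegron NT at 1.45% ± 0.571 (n = 6). Bone marrow pro-B cells were at 3.53%, 4.96% and 5.26% (lowest, median and highest of 6). CTCFdegron IAA was highest, at 10.9%, 12.96% and 18.3%, and overlapped no other group.

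With IAA the region's share of all junctions rose 9.21-fold in CTCFdegron cells, from 1.45% ± 0.571 to 13.4% ± 2.56 (n = 6 each), higher by 11.9 percentage points. The two-sided exact permutation p was 0.00216, the minimum for 6 against 6, and 0.0104 after Benjamini-Hochberg adjustment over 24 share tests. Without replicate 1 in both groups the difference was 11.2 points. In parental cells the change was 0.00811 points (0.611% with IAA, exact p = 0.857). It was -0.0930 points in Ostir_only (p = 0.343, exact permutation) and -0.104 points in CTCFtagging_only (p = 0.429, exact permutation). The IAA effect itself was taken as the IAA minus NT difference of same-numbered replicates. It differed between CTCFdegron and each of these 3 lines, by 11.9, 12.03 and 12.04 points. With these differences permuted between lines the exact p was 0.00476 for each, the minimum for 6 against 4. In the parental line same-numbered shares did not go together (correlation -0.664), and replicates 1 and 2 came from different runs in the 2 treatments.

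**Figure D1:**
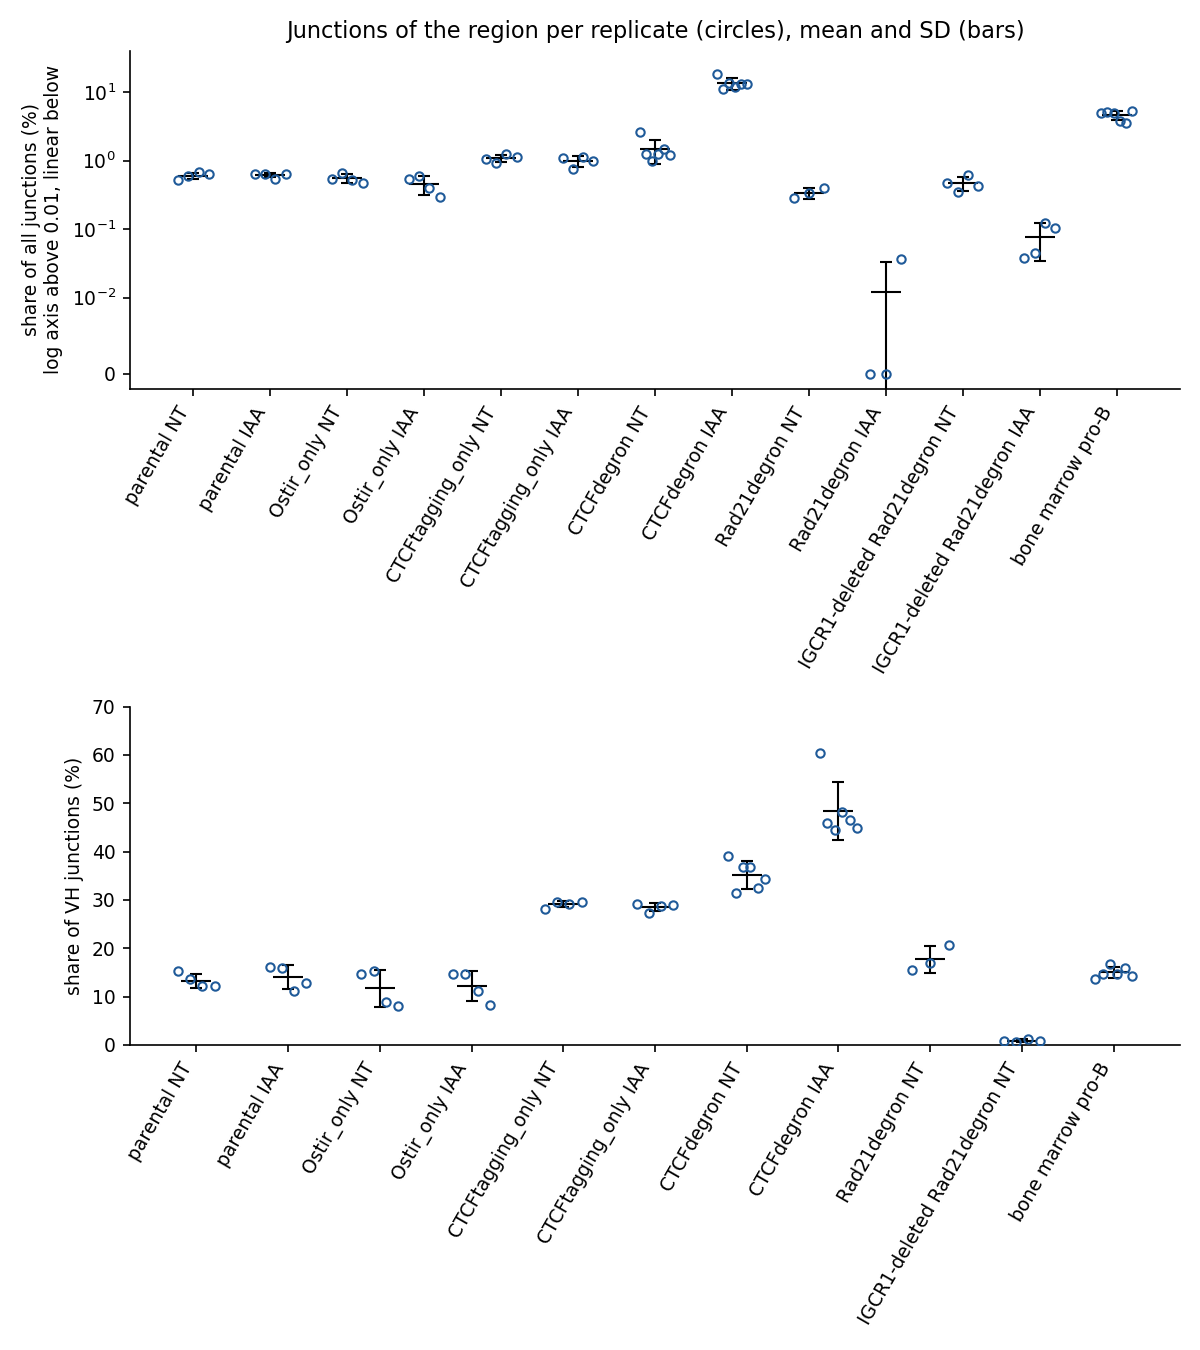
Share of all junctions (top, log axis above 0.01%, linear below) and of VH junctions (bottom) that lay in the region, in percent. Circles are replicates and bars give the mean and SD of each group; CTCFdegron IAA lies above every other group in both panels, and bone marrow is second in the top panel but near the parental line in the bottom one.

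Part of the rise in CTCFdegron was shared with the rest of the VH region, which a share of VH junctions sets aside. The region held 35.2% ± 2.93 of VH junctions in CTCFdegron NT and 48.4% ± 6.07 with IAA, 13.2 points more (exact permutation p = 0.00216, adjusted 0.0104) with no overlap. Without replicate 1 in both groups this was 11.6 points (exact p = 0.00794). It was lost when junctions with identical prey position, orientation and bait end were counted once (2.81 points, exact p = 0.435), and kept when the far end of the prey read also had to match (12.5 points, exact p = 0.00216). By the first key 35.3% of the region's junctions in CTCFdegron IAA were distinct and 62.8% in NT; by the second, 92.3% and 96.3%. Relative to the next stretch, 500 to 1200 kb into the VH region, the region's part of both did not differ between treatments beyond the spread, at 83.5% with IAA and 84.0% without (exact p = 0.814).

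Untreated lines stood at different levels in the same measure. The parental line was at 15.3%, 13.6%, 12.3% and 12.1% of VH junctions, and Ostir_only at 14.7%, 15.4%, 8.79% and 8.11%. CTCFtagging_only NT was at 28.2% to 29.5%, above every parental replicate, by 15.8 points (exact p = 0.0286, the smallest possible; adjusted 0.125 over 24 added tests). Within the 1 run that both lines shared, the values were 29.1% and 14.4%. CTCFdegron NT exceeded parental NT by 21.9 points (exact p = 0.00476, adjusted 0.0114), and the 2 groups shared no run. In CTCFdegron NT, a libraries exceeded b libraries in 6 of 6 replicates, by 4.47 points on average (exact sign-flip p = 0.0313, adjusted 0.125). The stretch before the region held 82.0% ± 2.36 of VH junctions in parental NT, 47.0% ± 11.5 in CTCFtagging_only NT and 33.4% ± 8.46 in CTCFdegron NT.

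The deletion of IGCR1 had a different pattern. The region held 0.684% to 1.22% of VH junctions in the 4 IGCR1-deleted NT replicates, against 15.5%, 16.9% and 20.7% in Rad21degron NT. The difference was -16.8 points (exact p = 0.0286, the smallest possible; adjusted 0.0527), and run and line cannot be told apart. All IGCR1-deleted libraries used here are b libraries, and against the b libraries of Rad21degron NT the difference was -17.9 points. The stretch before the region held 98.9% ± 0.317 of VH junctions in IGCR1-deleted NT and 69.1% ± 5.03 in Rad21degron NT. The region's share of all junctions was higher in the IGCR1-deleted line by 0.131 points, within the spread (exact p = 0.114). With IAA that line was at 0.0375%, 0.0446%, 0.124% and 0.104% of all junctions, which rest on 6 junctions in all (exact p = 0.0286, adjusted 0.0527). Its share of VH junctions was 1.24% ± 0.6246 with IAA and 0.922% ± 0.222 without, within the spread (exact p = 0.4), and this difference turned to -3.00 points with identical junctions counted once. In Rad21degron with IAA 1 junction was left among 5566, in replicate 3. Replicates 1 and 2 had none, where 3 junctions would have given 0.166% and 0.238%, against 0.280% to 0.396% without IAA. A comparison of 3 replicates with 3 cannot give an exact p under 0.1, which was the value. Only 5 VH junctions were left in this group, so its share of VH junctions was not tested.

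Within the region the order of segments was led by its near end. Ighv2-3 at 13.6 kb held 20563 junctions (31.4% of the region), Ighv5-6 at 28.0 kb 13262 (20.3%), Ighv5-12 at 106.0 kb 11872 (18.1%) and Ighv5-6 at 143.2 kb 5164 (7.89%). These pooled counts are weighted towards CTCFdegron IAA and bone marrow. Ighv2-3 held from 17.0% of the region's junctions in bone marrow to 66.0% in IGCR1-deleted NT. Ighv5-12 at 106.0 kb stood above Ighv5-6 at 28.0 kb in CTCFdegron NT (27.5% and 21.0%) and CTCFtagging_only NT (27.0% and 19.4%), the reverse of the pooled order. The closest mm9 genes of the first 3 lie at chr12:114849395-114849828, chr12:114863717-114864167 and chr12:114940335-114940789 of mm9. The 20 other segments held from 92 junctions, at Ighv2-6-8 at 468.6 kb, the farthest, to 1652, at Ighv5-12 at 248.1 kb. Ighv5-6 at 225.9 kb (1528), Ighv2-9-1 at 234.0 kb (1261) and Ighv5-6 at 409.2 kb (1100) complete the 8 with the highest mean share over the 13 groups.

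The 4 leading segments, chosen by their level, held 91.6% ± 2.20 of the region's junctions in parental NT, 87.0% ± 2.32 in CTCFdegron NT, 87.8% ± 1.07 in CTCFdegron IAA and 51.7% ± 3.97 in bone marrow. The effective number of segments (the inverse of the summed squared shares) was 3.03, 4.54, 4.16 and 11.5 in these groups, and 2.08 in IGCR1-deleted NT. Segments beyond 300 kb, 10 of the 24, held 4.46% ± 0.834 of the region's junctions in CTCFdegron IAA and 26.7% ± 2.37 in bone marrow. Bone marrow replicates did not overlap those of any line group with over 100 junctions in the region in these 3 measures.

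**Figure D2:**
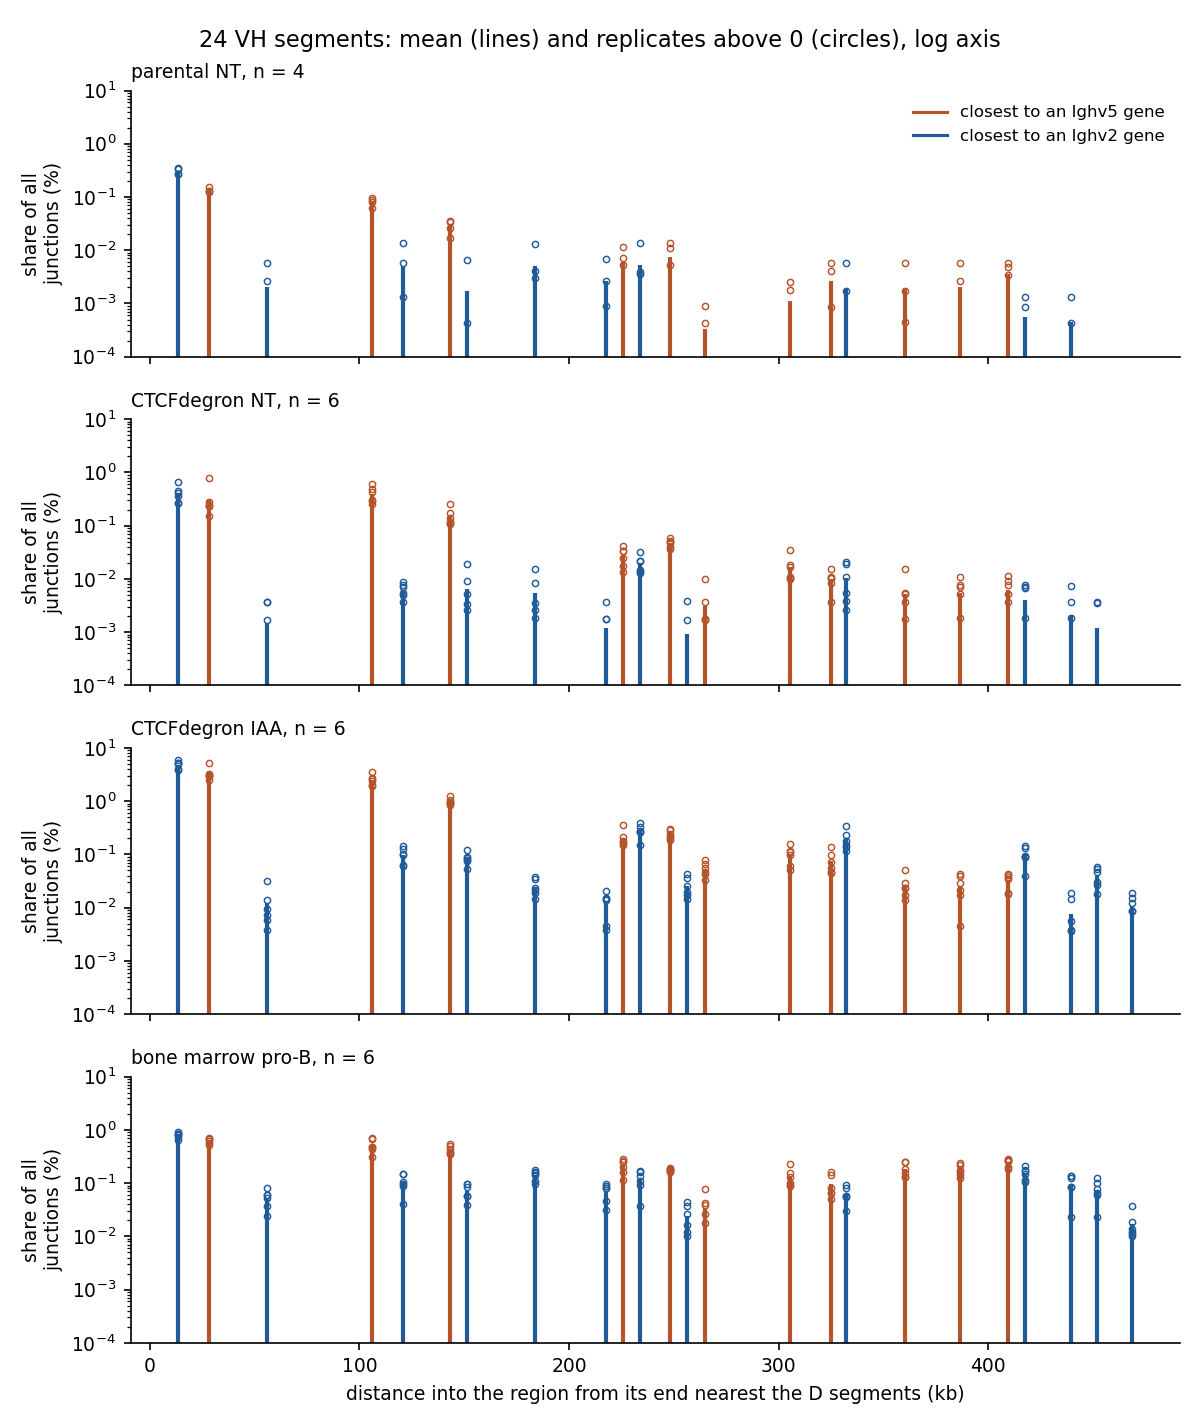
Mean share of all junctions (vertical lines, percent, log axis) at the 24 VH segments against their distance into the region in kb, in 4 groups; circles are replicates above 0. The first segment, Ighv2-3, stands highest in all 4 groups, narrowly so in CTCFdegron NT (0.402% against 0.398% at Ighv5-12 at 106.0 kb). Beyond 300 kb bone marrow has the higher mean share at 9 of 10 segments when set against CTCFdegron IAA, Ighv2-9 at 331.9 kb being the exception.

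Segment by segment, limma (voom weights, Benjamini-Hochberg adjusted p under 0.05 over all V and D segments tested) called 13 of the 13 region segments with enough junctions higher in CTCFdegron IAA than NT, where 88.6% of all 70 tested segments were called (87.1% higher, 1.43% lower). The median log2 change was 3.55 in the region and 2.76 over all tested. With identical junctions counted once all 13 were still called higher, but these medians were 1.53 and 1.44, with 44 called higher and 11 lower over all. The other 11 segments had under 10 junctions per replicate on average over both groups together. Segments with 11 to 54 junctions in the 6 NT replicates, including the weaker ones named below, passed this filter only through the IAA group. For them the rise and the lack of overlap were partly set by the filter. Ighv2-3 at 13.6 kb went from 0.262%, 0.390% and 0.661% of all junctions (lowest, median and highest of 6) to 3.78%, 5.10% and 6.04%. Its log2 change was 3.66 ± 0.23 (SE), with limma's adjusted p = 3.13e-22. The groups did not overlap at any of the 13 segments. Overlap was not counted at the other tested segments, so this cannot be taken as particular to the region. Ighv5-6 at 28.0 kb rose by 3.55 ± 0.26, Ighv5-12 at 106.0 kb by 2.72 ± 0.24 and Ighv5-6 at 143.2 kb by 2.78 ± 0.26. Among the weaker segments, Ighv2-6 at 417.5 kb rose by 4.54 ± 0.48, from 11 junctions to 172, and Ighv2-9 at 331.9 kb by 4.24 ± 0.45, from 31 to 336. Ighv2-6 at 151.3 kb rose by 3.81 ± 0.47 and Ighv2-9-1 at 234.0 kb by 3.72 ± 0.38.

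Scaled to VH junctions, 7 of 13 region segments were called higher and none lower, where 48.1% of the 54 tested segments were called (33.3% higher). All 6 Ighv2 segments tested were among the 7, with log2 changes of 0.84 to 1.75. Only 1 of 7 Ighv5 segments was, Ighv5-6 at 28.0 kb (0.71 ± 0.19). On this scale Ighv5-12 at 106.0 kb changed by -0.092 ± 0.18 and Ighv5-6 at 143.2 kb by -0.033 ± 0.17, neither past the threshold. Every Ighv2 segment here but Ighv2-3 at 13.6 kb had 11 to 54 junctions in the 6 NT replicates and passed the count filter only through the IAA group. Among the Ighv5 segments this held at 305.4 kb (42) and 325.1 kb (26). The split by family is thus partly shaped by the filter. The split by family was also made after these values were seen, and the difference between families was not tested on this scale. From the same junctions, and so not independent of it, the Ighv5 share of the region's junctions was 67.5% ± 7.32 without and 56.8% ± 4.02 with IAA (exact permutation p = 0.0152, adjusted 0.0437 over 49 added tests), with overlap. It was 44.9% ± 2.35 and 52.7% ± 5.03 in the parental line (exact p = 0.0286, adjusted 0.0737), the opposite direction, and 64.8% and 64.3% in CTCFtagging_only (exact p = 0.8).

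**Figure D3:**
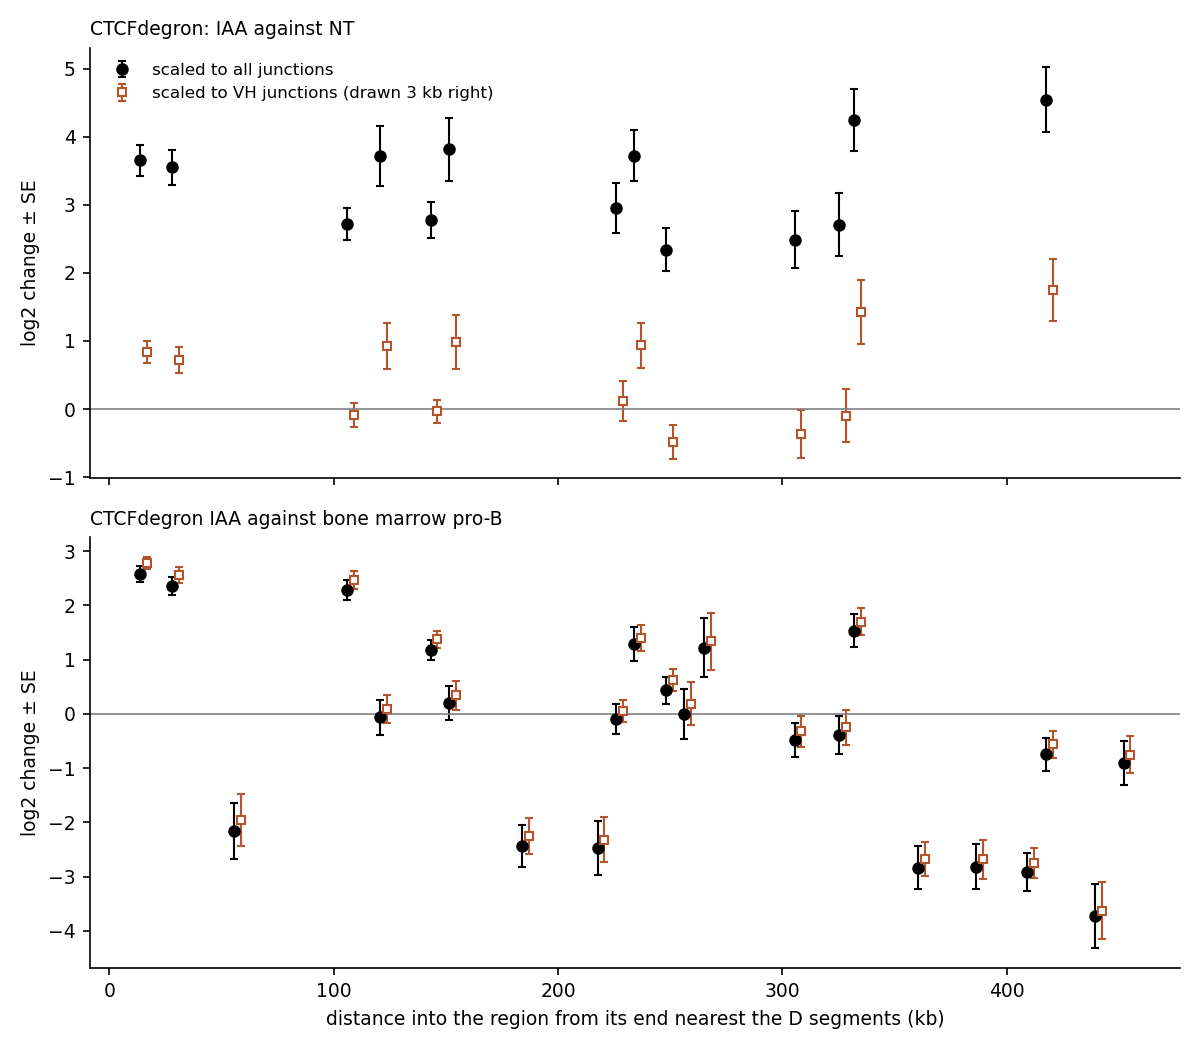
Log2 change ± SE of each tested region segment against its distance into the region in kb, for CTCFdegron IAA against NT (top) and against bone marrow (bottom). Black circles are scaled to all junctions and open squares, drawn 3 kb to the right, to VH junctions; in the top panel all circles are above 0 while the squares lie between -0.48 and 1.75.

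No such rise was called in the control lines. With IAA limma called 0 of 4 region segments in the parental line (28.1% of 32 tested over all, 25% higher and 3.12% lower; 1 of the 4 at an unadjusted p under 0.05), 0 of 4 in Ostir_only (4.35% of 23; 1 unadjusted) and 0 of 12 in CTCFtagging_only (0 of 74; 0 unadjusted). In Ostir_only and CTCFtagging_only same-numbered replicates deviated together. With the replicate number as a block limma called 1 of 4 region segments lower in Ostir_only, where 13 of all 23 tested were called (7 higher, 6 lower). In CTCFtagging_only it called 0 of 12, where 13 of all 74 were called (11 higher, 2 lower). At Ighv2-3 at 13.6 kb the parental replicates were at 0.273%, 0.265%, 0.336% and 0.348% of all junctions without IAA and 0.223%, 0.291%, 0.242% and 0.272% with it. These overlapped, with a log2 change of -0.33 ± 0.13 and limma's adjusted p = 0.0981.

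Between the untreated lines, CTCFdegron exceeded the parental line at 4 of 5 tested region segments (61.8% of all 34 tested were called, 50% higher). The count was 3 of 5 with the replicate block (12 of 29 over all segments). It was also 3 of 5 with identical junctions counted once (13 of 30 over all) and with read ends in the key (16 of 32). All 4 were Ighv5 segments, but only 1 of the 5 tested was Ighv2. Ighv5-12 at 248.1 kb, with 39 junctions in 4 parental replicates, passed the count filter only through CTCFdegron NT. Ighv5-12 at 248.1 kb was higher by 2.64 ± 0.47 in log2, Ighv5-6 at 143.2 kb by 2.26 ± 0.41 and Ighv5-12 at 106.0 kb by 2.15 ± 0.35, without overlap. The nearest segment, Ighv2-3 at 13.6 kb, was at 0.402% ± 0.147 against 0.305% ± 0.0427 (log2 change 0.26 ± 0.31, limma's adjusted p = 0.478). These groups share no run, so line and run cannot be told apart.

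Against bone marrow, CTCFdegron IAA was higher at 7 of 23 tested region segments and lower at 9. Over all 142 segments tested 85.2% were called, 16.2% higher and 69% lower. Ighv2-3 at 13.6 kb was at 4.88% ± 0.867 against 0.793% ± 0.0929 (log2 change 2.58 ± 0.15) and Ighv5-6 at 28.0 kb at 3.31% ± 0.931 against 0.624% ± 0.0686 (2.35 ± 0.17). Several far segments went the other way, as did nearer ones. Ighv2-2 at 439.3 kb had a log2 change of -3.73 ± 0.59, Ighv5-6 at 409.2 kb -2.92 ± 0.35, Ighv5-6 at 360.4 kb -2.84 ± 0.39 and Ighv5-12 at 386.3 kb -2.82 ± 0.41. Nearer in, Ighv2-2 at 217.6 kb changed by -2.47 ± 0.51, Ighv2-2 at 183.8 kb by -2.43 ± 0.39 and Ighv2-4 at 55.7 kb by -2.15 ± 0.52. The changes at 305.4 and 325.1 kb were not called. The segments named here as lower had 13 to 59 junctions each in the 6 CTCFdegron IAA replicates. They passed the count filter only through bone marrow, so a lower value there was partly set by the filter. Ighv5-6 at 409.2 kb held 0.0179%, 0.0358% and 0.0424% (lowest, median and highest) of all junctions in CTCFdegron IAA and 0.186%, 0.263% and 0.288% in bone marrow. Neighbours could differ in sign: Ighv2-9 at 331.9 kb was higher in CTCFdegron IAA by 1.54 ± 0.31. Scaled to VH junctions, 8 of the 23 were called higher and 9 lower, where 88.5% of 122 tested were called (18% higher, 70.5% lower). With median-of-ratios scaling the split was 12 higher and 6 lower (40 and 56 over all segments). With identical junctions counted once it was 8 higher and 4 lower of 19 (25 and 64 over all).

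Bone marrow exceeded untreated parental cells at all 23 tested region segments (98.6% of all 143 tested were called, 95.8% higher and 2.8% lower). Outside the 4 leading segments, parental counts were 0 to 39 junctions per segment in 4 replicates together. Those segments passed the count filter only through bone marrow, so a higher value there was partly set by the filter. The 4 largest log2 changes were 6.47 ± 0.74 for Ighv5-6 at 360.4 kb, 6.47 ± 0.91 for Ighv2-9 at 452.0 kb, 6.40 ± 0.74 for Ighv2-6 at 417.5 kb and 5.91 ± 0.84 for Ighv2-6 at 120.6 kb. Parental cells had 0 to 6 junctions at these 4, so the fitted changes rest on the pseudocount of 0.5. The smallest was 1.28 ± 0.18, at Ighv2-3 at 13.6 kb. Scaled to VH junctions this segment was lower in bone marrow, by -1.34 ± 0.13, as was Ighv5-6 at 28.0 kb by -0.46 ± 0.18, while 19 of 23 stayed higher (92.7% of 123 tested were called). The region's share of VH junctions was 15.0% ± 1.09 in bone marrow and 13.3% ± 1.45 in parental NT (exact p = 0.0810). The direction turned with identical junctions counted once (-6.33 points) and with read ends in the key (-0.282). The stretch before the region held 22.2% ± 3.74 of VH junctions in bone marrow and 82.0% ± 2.36 in parental NT.

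The joins themselves were read in frame terms: 58016 of the 64681 plus-orientation joins at the segments could be followed from the conserved V cysteine to the JH4 tryptophan. In frame were 33.5% ± 0.630 of them in CTCFdegron IAA, 34.0% ± 2.32 in CTCFdegron NT and 35.6% ± 3.52 in parental NT. Bone marrow was at 49.2%, 50.2% and 58.1% (lowest, median and highest), 17.8 points above CTCFdegron IAA (exact permutation p = 0.00216, adjusted 0.0156) and 15.8 above parental NT (exact p = 0.00476, adjusted 0.0156). Joins that were also free of stop codons made up 42.7% ± 4.99 in bone marrow and 26.6% ± 0.780 in CTCFdegron IAA. VH segments outside the region had 50.5% ± 3.81 and 33.3% ± 0.626 in frame, so the difference was not particular to the region.

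In bone marrow the in-frame share varied by segment. Pooled over replicates it was 41.9% at Ighv2-3 at 13.6 kb (95% exact binomial interval 40.02% to 43.8%, 2661 joins), 39.7% at Ighv5-6 at 28.0 kb (37.6% to 41.8%) and 54.1% at Ighv5-12 at 106.0 kb (51.8% to 56.5%). It was 73.3% at Ighv5-6 at 360.4 kb (69.7% to 76.7%, 633 joins), 70.8% at Ighv2-9 at 452.0 kb and 75% at the farthest, Ighv2-6-8 at 468.6 kb, on 64 joins. Chosen after their values were seen, Ighv2-6 at 120.6 kb (36.6%), Ighv2-6 at 151.3 kb (38.2%), Ighv2-2 at 183.8 kb (31.8%) and Ighv2-9 at 331.9 kb (37.5%) were lower than the segment on at least one side of each. In CTCFdegron IAA the same 3 near segments were at 33.2%, 34.3% and 32.9%. These intervals cover counting error only, and repeated reads of 1 molecule are not independent: in bone marrow 62.9% of the region's junctions were distinct when read ends were compared too.

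**Figure D4:**
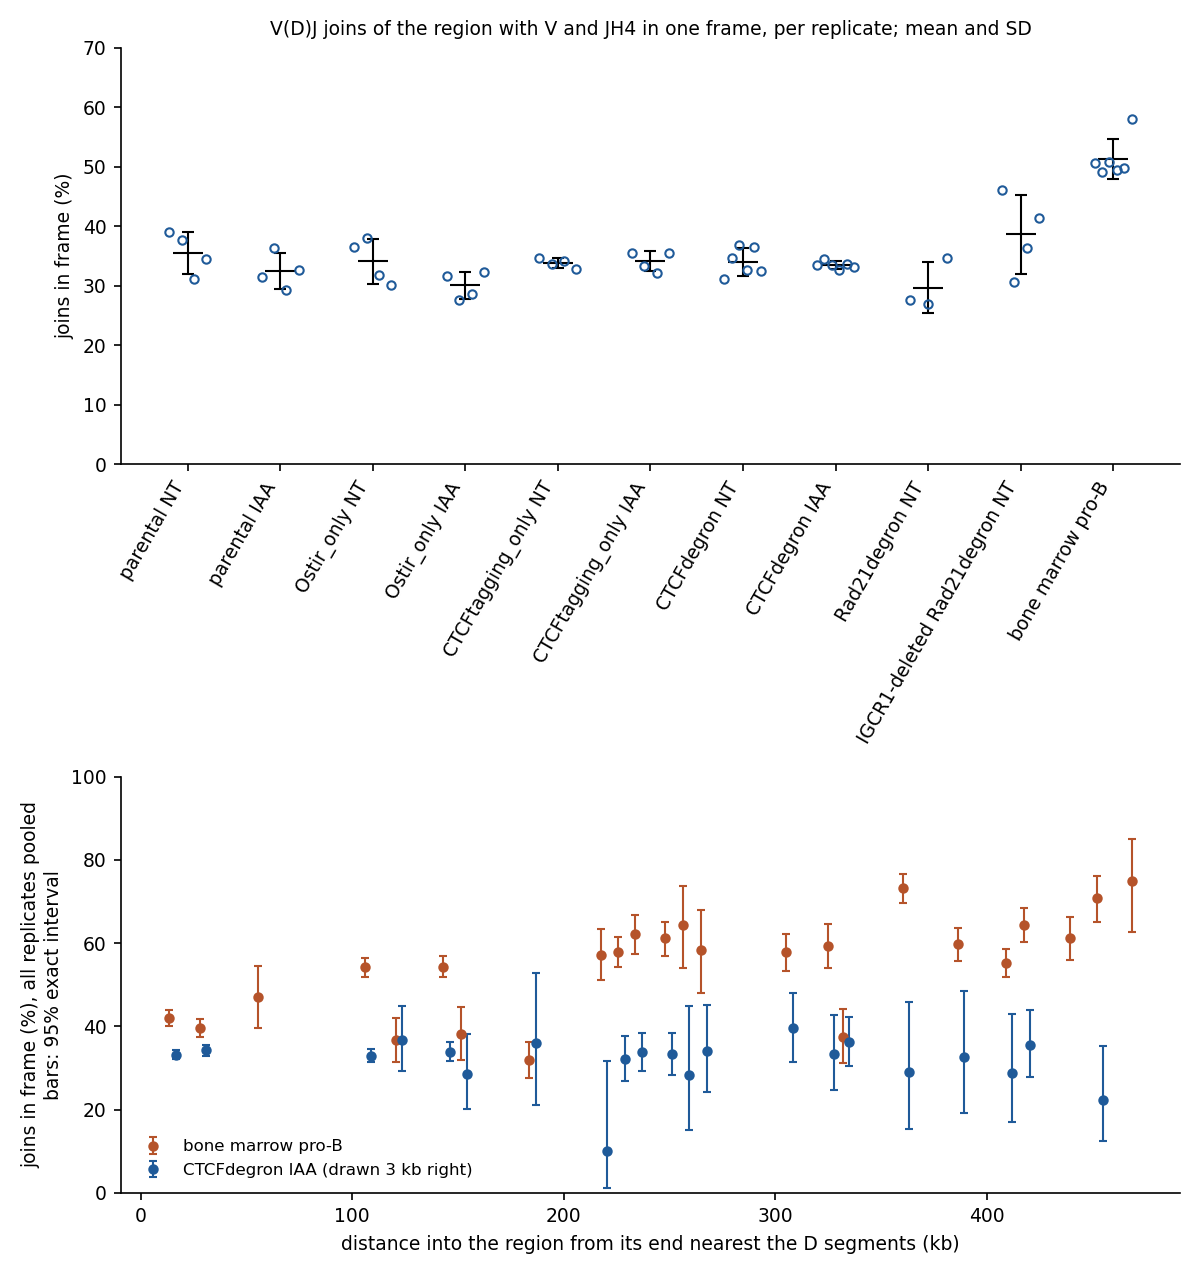
Share of joins in the region with V and JH4 in one reading frame, in percent: by group (top; circles are replicates, bars the mean and SD) and by segment against distance into the region in kb (bottom; all replicates pooled, bars the 95% exact binomial interval). Bone marrow replicates sit at 49.2% or above, CTCFdegron IAA replicates between 32.6% and 34.5%, and most bone marrow segments beyond 200 kb exceed 50%.

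Joins also differed in their ends and in the D segment between them. Trimming was read only at the 16 segments with a readable heptamer, which leave out Ighv5-6 at 143.2 kb. These held 13188 of 16744 plus-orientation joins in bone marrow and 21091 of 23351 in CTCFdegron IAA, in a different mix of segments. In bone marrow 43.5% ± 2.25 of these V ends were untrimmed, against 28.7% ± 0.820 in CTCFdegron IAA and 29.4% ± 2.93 in parental NT. The median CDR3 was 43.7 ± 1.03 bases in bone marrow and 40.8 ± 0.408 in CTCFdegron IAA (exact permutation p = 0.00216, adjusted 0.0156). No row of the files has more than 30 bases between bait and prey, so joins with longer inserts are not in these measures. A D segment was recognised, by a match of 8 bases, in 60.7% of joins in CTCFdegron IAA and 69.2% in NT. Of these, joins with Ighd1, the family of the D segment nearest to VH, made up 58.4% ± 10.0 in CTCFdegron NT and 39.95% ± 4.82 with IAA (exact p = 0.00433, adjusted 0.0156), with overlap. Each control line was lower with IAA too, though none passed the threshold: 47.2% and 39.3% in the parental line (exact p = 0.0571), 37.3% and 31.8% in Ostir_only (exact p = 0.486), and 59.6% and 45.7% in CTCFtagging_only (exact p = 0.143). These p-values ignore the replicate number. By same-numbered replicate the share was lower with IAA in every pair of CTCFdegron, the parental line and CTCFtagging_only. In Ostir_only it was lower in replicates 1 to 3 and higher in replicate 4. The difference between lines was not tested. Ighd1 was lowest in the region's joins of IGCR1-deleted NT cells, at 11.7% ± 7.64.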

How the data were processed

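The deposited tables hold 1 row per junction read, with its chromosome, position, orientation and read sequence. Per the submitters' processing notes Bowtie2 and mm9 were used, and per the labels reads were aligned to a hybrid genome; other steps and versions are not given in the sources used here. The 98 full libraries were used and the 12 off-target lists were not. Junction positions were corrected for a 3 bp shift, of opposite sign in a and b libraries, which left the region's membership unchanged.

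A replicate is the mean of the shares in its a and b libraries, or its only library: b in the IGCR1-deleted groups, without a letter in bone marrow. Shares were compared with two-sided exact permutation tests. Tallies per segment, a and b summed, went into limma 3.58.1 (voom, lmFit, eBayes) under R 4.3.3, with the library total as scale and a pseudocount of 0.5. Segments needed a mean of at least 10 junctions per replicate over both groups of a comparison together, so a high group alone could pass a segment. P-values had Benjamini-Hochberg adjustment. The test was also run on simulated tallies in which a minority of segments changed, in both directions, without repeated reads. That check does not cover comparisons in which most segments moved the same way. Segments were matched to mm9 with blastn 2.17.0. Shares rest on PCR reads without molecular identifiers, so counting intervals cover counting error only.

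Named segments are the 8 with the highest mean share over the 13 groups, at most 4 per comparison with the largest called change and no overlap, and the nearest and farthest. The members and lists were chosen with earlier results of these data known. Same-numbered replicates deviated together in every pair only in Ostir_only (mean correlation 0.771 over segments, 4 pairs) and CTCFtagging_only (0.673); the replicate block was an alternative. In CTCFdegron it was 0.188, with a lowest pair of -0.0972. Other alternatives were the scaling, the low-count filter, repeated reads, a or b libraries alone and each replicate left out.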

Additional observations from a re-analysis of the deposited data

Results flagged for a closer look

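The effect of IAA on the region's share differed between CTCFdegron and each control line. Differences of same-numbered replicates were permuted between lines (exact p = 0.00476 for each). The difference of effects in the share of all junctions was 11.9 points against the parental line, 12.03 against Ostir_only and 12.04 against CTCFtagging_only. In the share of VH junctions it was 12.5, 12.8 and 13.8 points, but -0.792, 1.71 and 3.97 with identical junctions counted once.

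Of 123 groups of replicates examined, 13 held a replicate far from the others, where chance gives about 1 in 20. In CTCFdegron it was replicate 1 in both treatments: 2.58% of all junctions without IAA and 18.3% with it, and 60.5% of VH junctions with it. The same replicate stood apart at Ighv5-6 at 28.0 kb, at 0.793% without and 5.15% with IAA, and at Ighv5-6 at 225.9 kb with IAA, at 0.349%. In the parental line it was IAA replicate 3 for the region's share of all junctions (0.547%), NT replicate 2 for the part held by the 4 leading segments (88.4%), and NT replicate 3 (0.156%) and IAA replicate 4 (0.184%) at Ighv5-6 at 28.0 kb. In CTCFtagging_only it was IAA replicate 2 at Ighv2-3 at 13.6 kb (0.176%) and NT replicate 3 at Ighv5-12 at 106.0 kb (0.362%). In bone marrow it was replicate 6 for joins in frame (58.1%).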

How the results depend on the processing

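Of 1223 alternatives over 76 results, 1146 kept direction and side of the threshold. Depth limits the Rad21degron lines with IAA, and 11 of 24 segments in CTCFdegron. The rise in CTCFdegron in the share of all junctions held in each of its 22. The cause was not tested for any change below.

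With identical junctions counted once, IGCR1-deleted against Rad21degron NT was -0.116 points of all junctions, and in the share of VH junctions the IGCR1-deleted IAA difference was -3.00, CTCFdegron IAA against NT 2.81, bone marrow against parental NT -6.33 and the differences of IAA effects -0.792 (parental), 1.71 (Ostir_only) and 3.97 (CTCFtagging_only). The CTCFdegron difference within the first 1200 kb was then -8.41, and 13 region segments were called for bone marrow against parental NT (91 of 100 over all segments). With read ends in the key, a choice made after seeing the data, CTCFdegron against parental NT was 0.909 and parental IAA against NT -0.161 points of all junctions; in VH junctions parental IAA was -0.0330, IGCR1-deleted IAA -0.118 and bone marrow against parental NT -0.282.

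In a libraries only, bone marrow against parental NT was 2.64 points of VH junctions. In b libraries only, parental IAA was -0.0388 of all and -0.391 of VH junctions, CTCFtagging_only 0.415 of VH, and CTCFdegron within the first 1200 kb 0.760.

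For region segments, CTCFdegron IAA against NT had 7 calls with median-of-ratios scaling (26 higher and 20 lower over all segments, median change 0.43). It had 7 with VH junctions as scale (18 higher and 8 lower over all, median change 0.28). With a mean of at least 1 junction it had 24 (123 of 149 over all), and CTCFdegron NT against parental NT had 11 (74 of 124 over all). Parental IAA had 1 with median-of-ratios scaling (5 of 32 over all). Against parental NT, the bone marrow change of Ighv2-3 at 13.6 kb was -0.90 (median-of-ratios), -1.34 (VH scale) and -0.54 (counted once), that of Ighv5-6 at 28.0 kb -0.040, -0.46 and -0.040, and that of Ighv5-12 at 106.0 kb -0.056 (VH scale). In CTCFdegron the VH scale gave -0.092 at Ighv5-12 at 106.0 kb and -0.033 at Ighv5-6 at 143.2 kb.

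With the replicate block, 3 or 4 pairs cannot give p under 0.125, and these were no longer past the threshold: IGCR1-deleted IAA against NT -0.389; CTCFdegron IAA against IGCR1-deleted NT 13.1 points of all and 48.9 of VH junctions; CTCFdegron against parental NT 0.908 and 22.8; bone marrow against parental NT 4.10 of all junctions, -53.5 within the first 1200 kb, -41.0 for the leading segments, 15.0 for Ighv5, 14.4 for joins in frame and -17.3 for Ighd1; IGCR1-deleted against Rad21degron NT -16.8 of VH. With 6 pairs, Ighv5 in CTCFdegron IAA against bone marrow was -4.67. The block gave 1 called region segment each for parental IAA (12 of 32 over all segments) and Ostir_only IAA (13 of 23). It took CTCFdegron NT against parental NT from 4 to 3 called (12 of 29 over all) and CTCFdegron IAA against bone marrow from 16 to 15 (119 of 142). Bone marrow against parental NT went from 23 to 22, of 22 tested (137 of 140 over all).

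Leaving out each replicate, 747 of 771 fits kept the call. For results where a call changed, the ranges given here cover all left-out fits, not only the changed ones. They were -0.0188 to 0.0316 (parental IAA, all junctions), -0.0359 to 1.64 (parental IAA, VH) and -0.783 to 1.74 (Ostir_only IAA, VH). Between lines they were -17.9 to -15.3 (IGCR1-deleted against Rad21degron NT, VH) and 1.30 to 2.33 (bone marrow against parental NT, VH). For CTCFdegron they were -1.81 to 0.838 (first 1200 kb), -5.49 to -3.64 (Ighv5, IAA against bone marrow) and -1.10 to 0.0213 (joins in frame).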
